A study of Mus musculus with 14 samples.

Results

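Lungs of mice carrying either of 2 mammary tumours were compared, as 1 pooled class, with lungs of mice without a tumour, to find changes that both tumours share. BALB/c mice received cells of a mouse breast carcinoma line in the fourth mammary fat pad. The line was 4T1, which the labels call metastatic, or 67NR, which they call non-metastatic, and the normal mice were given PBS without cells. Lungs were taken 6 days later, or when the tumours were near 50 mm3, and blood was flushed from the vessels with PBS. All 14 arrays of the series enter the comparison, 4 from 4T1, 5 from 67NR and 5 from normal lungs, each measured once on an Affymetrix mouse array. Each tumour class rests on 1 transplanted cell line. Whether every lung belonged to a separate mouse is not stated in the labels. The p-values then reflect only how far these arrays scatter, and the number of arrays limits the precision.

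The deposited values are linear intensities of probe sets, groups of probes that report 1 transcript or gene. Differences are given on the log2(intensity + 16) scale, where an offset of 16 damps the noise of dim probe sets and understates their change. The pooled difference is the mean of the 4T1 and 67NR differences from normal lung, each tumour weighted equally. It was fitted with limma, which shares 1 estimate of the spread among the groups, on all 45037 probe sets that are not controls. A probe set was called where its p, adjusted by the Benjamini-Hochberg method over all of them, was under 0.05. A pooled difference can pass through 1 tumour alone. A joint test therefore took, where both tumours moved the same way, the larger of the p-values of 4T1 and 67NR against normal lung, adjusted in the same manner. Both tumours were set against the same 5 normal arrays.

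Array medians lay between 113.2 and 116.1 and upper quartiles between 430.7 and 435.9. The lung markers Scgb1a1, Sftpb, Ager, Sftpc and Cldn5, of club cells, alveolar cells and endothelium, lay above 98.7% to 99.98% of all probe sets. In 67NR replicates 1 and 3 the clock gene Dbp stood apart, at 98.3 and 179.9, against 1574 to 4032 on the other arrays. Replicates 2 and 4 of 67NR, at 1861 and 1574, also lay below all 4T1 and normal lungs, at 3212 to 4032. Results are also given without 67NR replicates 1 and 3 where that changed them.

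Basophils are rare granulocytes of the blood that carry the high-affinity IgE receptor and release histamine and proteases. In the mouse, the serine protease Mcpt8 (mast cell protease 8) is their classical marker and is not a product of mature mast cells, in spite of its name. Neutrophils are the abundant granulocytes that leave the marrow in numbers under inflammation and in mice with 4T1 tumours, and they carry the calprotectin subunits S100a8 and S100a9, the chemokine receptor Cxcr2 and granule enzymes such as Mmp8 and Mmp9.

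Pooled over both tumours, 17 probe sets were higher than in normal lung, which is 0.0377% of those tested, and 0 were lower by limma at adjusted p under 0.05. At an unadjusted p under 0.05, 1141 were higher (2.53%) and 1193 lower (2.65%), together 5.18%. The called probe sets represented 14 genes with 1 symbol each, while 3 of the probe sets carried no single symbol in the annotation. Leaving out single arrays gave between 8 calls, without normal replicate 4, and 25, without 4T1 replicate 2. Without 67NR replicates 1 and 3 there were 5 calls, namely Mcpt8, Klra17, Wfdc17, Clec4d and S100a9.

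Most of the calls came from 4T1 lungs. All 17 passed in 4T1 against normal lung, where 67 probe sets were higher (0.149%) and 5 lower (0.0111%). A single probe set, that of Mcpt8, passed in 67NR against normal lung, where 1 was higher (0.00222%) and 0 lower. Of the 17, 15 also differed between 4T1 and 67NR lungs, a contrast that called 77 probe sets over the whole array (0.171%), and 2 were not called different, Mcpt8 and the unnamed probe set 1431525_at. Without normal replicate 4, 7 of its 8 pooled calls differed between the tumours, and without 67NR replicates 1 and 3, 4 of the 5 did. The joint test called 1 probe set higher (0.00222%), again Mcpt8, and 0 lower, with 416 at an unadjusted joint p under 0.05 (0.924%). In a fit of 2 groups, all 9 tumour arrays against the 5 normal ones, Mcpt8 was the one call left (limma adjusted p = 0.0083).

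**Figure D1:**
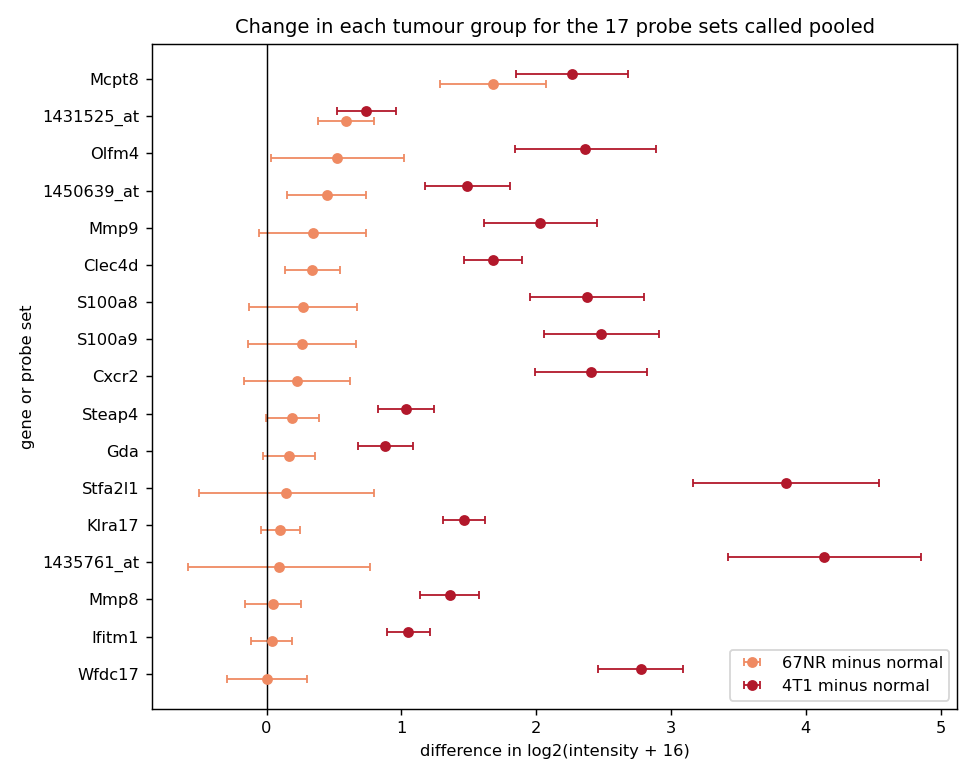
Difference from normal lung, in log2(intensity + 16), of 67NR lungs (orange) and 4T1 lungs (red) for the 17 probe sets called in the pooled comparison, with 95% intervals from the limma fit, ordered by the 67NR value. Mcpt8 lies far to the right of 0 in both groups (2.27 in 4T1 and 1.68 in 67NR), 1431525_at lies at 0.74 and 0.59, and most other 67NR points lie near 0 beside 4T1 points between 0.88 and 4.14.

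Mcpt8 rose in both tumour classes. It has 1 probe set, 1449965_at. Its intensities were 133, 74.97, 117 and 132 in the 4 4T1 lungs. In the 5 67NR lungs they were 67.8, 83.0, 52.1, 106 and 49.0. In the 5 normal lungs they were 6.34, 11.2, 11.7, 10.99 and 13.3. All 9 tumour lungs lay above all 5 normal lungs, while 4T1 and 67NR lungs overlapped. The mean intensity was 114.4 ± 27.3 in the 4 4T1 lungs (SD). It was 71.6 ± 23.6 in the 5 67NR lungs, and in the 5 normal lungs it was 10.7 ± 2.61.

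On the log2(intensity + 16) scale the mean levels of Mcpt8 were 6.999 ± 0.34 in 4T1, 6.41 ± 0.38 in 67NR and 4.73 ± 0.15 in normal lungs. The pooled difference was 1.97 (SE 0.16, 3.93-fold, limma adjusted p = 0.000366). It was 2.27 in 4T1 and 1.68 in 67NR, with a 95% interval of 1.29 to 2.07 for the latter. It passed the joint test (limma adjusted p = 0.022). The 4T1 level exceeded the 67NR level by 0.59, with a 95% interval of 0.173 to 1.001, which was not called over all probe sets (limma adjusted p = 0.411).

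In normal lung Mcpt8 was among the dimmest signals of the array. Its normal values lay above 7.74% to 14.4% of all probe sets, against 31.7% to 48.6% in 67NR and 40.9% to 53.3% in 4T1 lungs. The size of its change therefore depends on the offset, at 2.95 on the log2 scale with an offset of 1 and 1.04 with an offset of 64. The pooled call was kept in all 26 alternative fits that tested Mcpt8 (limma adjusted p from 0.00011 to 0.00997). The joint call was kept in 14 of 25. An offset of 64 gave a limma adjusted joint p of 0.342, and a fit with the replicate number as a block gave 0.518. Leaving out any 1 of the 5 normal arrays took its limma adjusted joint p to between 0.0848 and 0.115. Leaving out 4T1 replicate 3 gave 0.0632, 67NR replicate 1 gave 0.113 and 67NR replicate 2 gave 0.122, while 0.193 was reached without 67NR replicates 1 and 3.

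**Figure D2:**
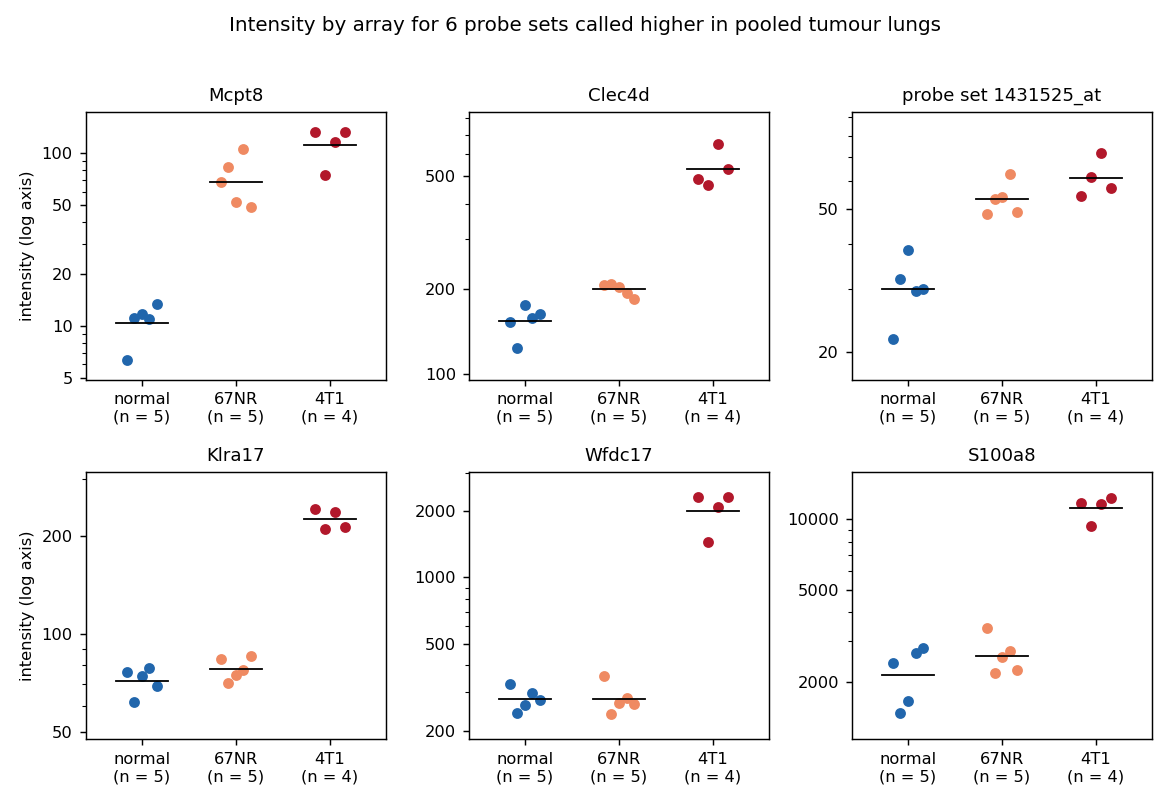
Intensity on each array (points; log axis, whose range differs between panels) in normal, 67NR and 4T1 lungs for 6 probe sets called higher in pooled tumour lungs, with the geometric mean of each group as a line. For Mcpt8, Clec4d and 1431525_at every tumour array lies above every normal array; for Klra17, Wfdc17 and S100a8 the 67NR points overlap the normal ones.

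Mcpt8 lies on chromosome 14 in a cluster of protease genes, between Mcpt4, a chymase of connective tissue mast cells, and Ctsg, a protease of neutrophil granules. To show how the called gene and its uncalled neighbour Mcpt4 differ at their starts, the 300 bases around each start, 250 before and 50 after, are given from RefSeq (build GRCm38.p6, minus strand, 5′ to 3′). The capitals mark GATAA, the core of the GATA factor motif, and CANNTG, the E-box, both searched on both strands and not overlapping each other here. The Mcpt8 promoter at chr14:56085148-56085447 held 0 GATAA and 3 CANNTG, and the Mcpt4 promoter at chr14:56062261-56062560 held 1 GATAA and 0 CANNTG.
Mcpt8: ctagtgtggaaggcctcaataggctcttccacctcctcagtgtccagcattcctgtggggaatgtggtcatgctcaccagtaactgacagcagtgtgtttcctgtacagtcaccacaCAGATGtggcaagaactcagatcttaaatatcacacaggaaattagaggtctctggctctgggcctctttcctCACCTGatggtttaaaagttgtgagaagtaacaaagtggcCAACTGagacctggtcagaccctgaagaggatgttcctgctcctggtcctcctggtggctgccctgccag
Mcpt4: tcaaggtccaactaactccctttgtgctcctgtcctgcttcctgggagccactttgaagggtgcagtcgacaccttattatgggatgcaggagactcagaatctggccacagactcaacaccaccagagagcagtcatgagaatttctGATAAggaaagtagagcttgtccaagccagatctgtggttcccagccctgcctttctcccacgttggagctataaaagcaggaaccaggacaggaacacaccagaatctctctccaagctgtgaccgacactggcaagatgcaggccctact
Of all 32851 promoters of that length in the RefSeq table, 25.41% held GATAA and 72.31% held CANNTG. These matches describe the letters in the window alone.

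None of the neighbours of Mcpt8 passed, which was true of nearly all probe sets, of which 0.0377% were called. Of the 16 genes nearest to it in RefSeq's gene order, 14 had a probe set of their own. Mcpt4 differed by 0.06 (pooled, log2 scale) and Ctsg by -0.05. Both were dim, at intensities of 9.41 to 16.1 and 3.45 to 7.94, where the offset of 16 understates a change. The other mast cell proteases Mcpt1, Mcpt2 and Cma1 differed by 0.15, -0.05 and 0.11. Among the granzymes, proteases of cytotoxic lymphocytes, Gzmb had the smallest p, with a pooled difference of 0.30 (SE 0.08, unadjusted p = 0.00326, limma adjusted p = 0.756), 0.33 in 4T1 and 0.27 in 67NR. Gzmc (-0.47) and Gzmd (-0.30) had negative values and Gzme (0.17) a positive one, at dim mean levels of 5.01, 4.37 and 4.47. The neighbours outside the protease cluster, Khnyn and Sdr39u1, differed by 0.08 and -0.12.

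Other genes of basophils and mast cells did not pass. The list held 20 genes, of which 19 were measured through 31 probe sets. Mcpt8 was the 1 called, where 0.0377% of all probe sets were called. Of the list, 3 probe sets were higher at an unadjusted p under 0.05, where 2.53% of all probe sets were. They were those of Mcpt8 itself, Fcer1a and 1 probe set of Cd200r3. The median pooled difference of the list was 0.04, against -0.0023 over all probe sets. Of the IgE receptor, which basophils and mast cells share, the alpha chain Fcer1a differed by 0.22 (95% interval 0.0038 to 0.44), with 0.09 in 67NR. The beta chain Ms4a2 differed by 0.40 (-0.17 to 0.98) and 0.26 (-0.05 to 0.57) by 2 probe sets. The first value rests on normal replicate 1, at 13.4 against 65.2 to 81.6 in the other normal lungs and 51.1 to 123 in tumour lungs. Without that array it was 0.08 pooled and 0.07 in 67NR, against 0.39 in 67NR with it. The second probe set had 0.21 in 67NR. That value fell to 0.09 without 67NR replicate 4, the highest at 89.3, and rose without 67NR replicate 2, the lowest at 38.8. Cd200r3, an activating receptor of both cells, differed by 0.61 pooled (limma adjusted p = 0.964) by 1 probe set. It had 0.50 in 4T1 and 0.71 in 67NR there, at dim intensities of 2.76 to 37.2. The other Cd200r3 probe set gave -0.10 pooled. Its intensities were 1.17 to 2.07 on every array but normal replicate 2, at 9.05.

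Gata2, a transcription factor that both lineages need, differed by 0.19 and 0.24 pooled, with 0.20 and 0.30 in 67NR. Hdc, the enzyme that makes histamine, differed by 0.14 and 0.21 pooled, with 0.21 and 0.29 in 67NR. The pooled intervals of both genes reached below 0. Leaving out single normal arrays moved the first pooled Gata2 value between 0.12 and 0.31. The second fell to 0.15 without normal replicate 1, its lowest normal lung at 840. It rose without normal replicate 3, its highest normal lung at 1373. Genes of mature mast cells had values near 0: the carboxypeptidase Cpa3 differed by 0.07, the tryptases Tpsb2 by -0.02 and 0.03 and Tpsab1 by -0.06, and the stem cell factor receptor Kit by -0.01 and 0.02. The cytokines Il4 and Il13 differed by -0.04 and 0.01. The summed intensity of the list ranged from 11543 to 12079 in 4T1, 11927 to 12739 in 67NR and 11029 to 11727 in normal lungs. Mcpt8 is a small part of that sum. The brightest probe set, of Kit, lay at 2618 to 3816, against 129 to 243 for Cpa3. In such whole-lung RNA, the cell type that carries a transcript such as Kit or Gata2 is not measured. More cells of a type and more RNA per cell cannot be told apart.

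**Figure D3:**
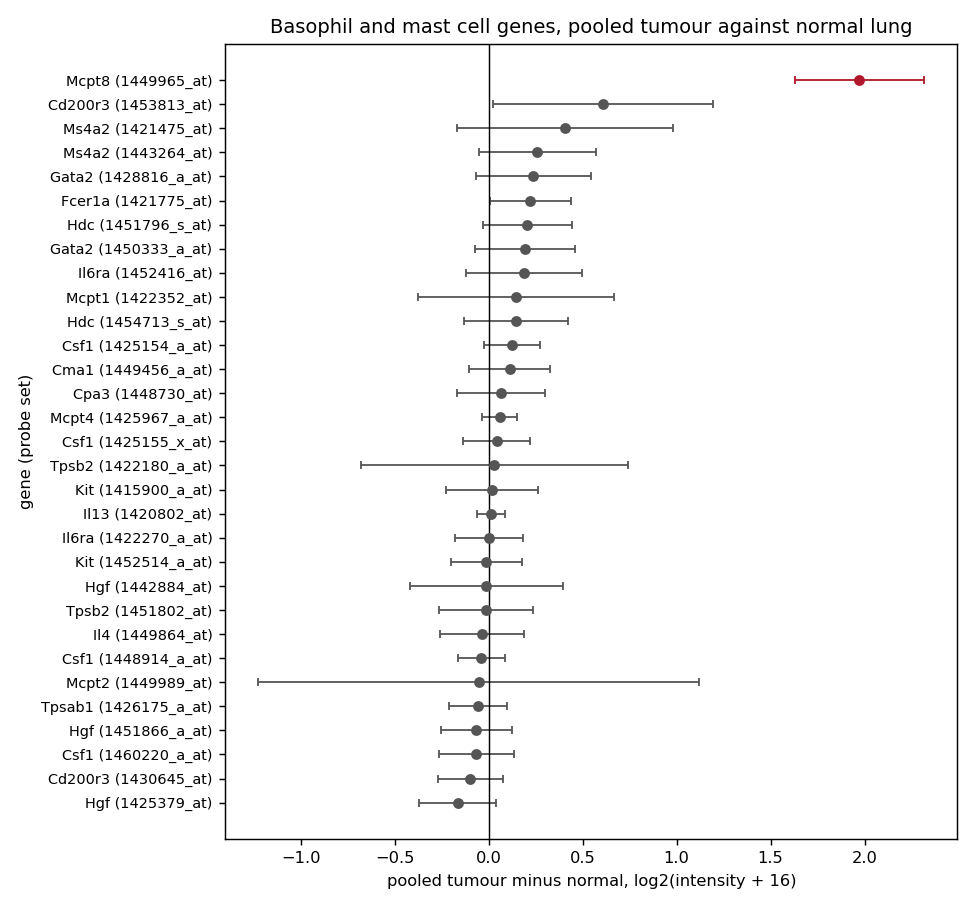
Pooled tumour minus normal difference in log2(intensity + 16), with 95% intervals, for the 31 probe sets of the basophil and mast cell list. Mcpt8 (red) is the one that passed, at 1.97; the next values, for Cd200r3 and Ms4a2, are 0.61 and 0.40, and the mast cell genes Kit, Cpa3 and Tpsb2 lie near 0.

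Clec4d, a C-type lectin receptor of myeloid cells, also separated the tumour lungs from the normal ones, with unequal sizes. Its intensities were 489, 466, 648 and 528 in 4T1 lungs. In 67NR lungs they were 207, 208, 203, 194 and 185, and in normal lungs 153, 124, 176, 158 and 163. The highest normal lung and the lowest 67NR lung thus lay close together, and all 4T1 lungs far above. The pooled difference was 1.01 (SE 0.08, limma adjusted p = 0.000366), made of 1.68 in 4T1 and 0.34 in 67NR. The 67NR part alone did not pass (unadjusted p = 0.00336, limma adjusted p = 0.596), and 4T1 exceeded 67NR by 1.34 (limma adjusted p = 6.98e-05).

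The unnamed probe set 1431525_at was the other pooled call that was not called different between the tumours. Its intensities were 54.4 to 71.7 in 4T1 lungs, 48.3 to 62.7 in 67NR lungs and 21.7 to 38.5 in normal lungs, with no overlap between tumour and normal. The pooled difference was 0.67 (SE 0.08, limma adjusted p = 0.0114), with 0.74 in 4T1 and 0.59 in 67NR. The tumours differed by 0.15 (95% interval -0.07 to 0.37). It missed the joint threshold (limma adjusted p = 0.768). The pooled call was lost in the fit of 2 groups (adjusted p = 0.0716), without 67NR replicates 1 and 3 (0.0678) and without normal replicate 4 (0.0501).

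Over the whole array 42 probe sets had no overlap between the 9 tumour and the 5 normal arrays (0.0933%), 23 higher (0.0511%) and 19 lower (0.0422%). Of the 17 called, 3 were among them, Mcpt8, Clec4d and 1431525_at. Counts of called probe sets without overlap rose to 5 without 4T1 replicate 3, normal replicate 1 or normal replicate 3, and to 6 without normal replicate 5. Splitting the array at a mean level of 7.002 on the log2 scale put 5 of the 17 calls in the dimmer part, namely Mcpt8, Olfm4, Klra17, 1431525_at and 1450639_at, and 12 in the brighter part. The dim count was 10 without 4T1 replicate 3 and 3 without normal replicate 4.

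The other calls rose in 4T1 lungs, and most were members of the neutrophil or other myeloid lists. Olfm4, Klra17 and Steap4 were in neither list. Lists were matched through probe sets with 1 symbol, so 1435761_at and 1450639_at, with several, could not be members. The pooled call was kept in 9 of 27 alternatives for Gda, 15 of 26 for Olfm4, 18 of 27 for Mmp9, 18 of 25 for 1435761_at, 20 of 27 for Steap4, 20 of 24 for 1450639_at and 21 of 27 for Stfa2l1. Stfa2l1, a stefin protease inhibitor of granulocytes, had the largest pooled difference of the 14 called genes, 2.001 (SE 0.26, limma adjusted p = 0.0151), made of 3.85 in 4T1 and 0.15 in 67NR (95% interval -0.50 to 0.80). Its intensities were 3200, 1421, 1423 and 2713 in 4T1 lungs, 76.1 to 228 in 67NR lungs and 106 to 172 in normal lungs. The 67NR lungs overlapped the normal ones on both sides.

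S100a9 rose by 1.37 pooled (limma adjusted p = 0.0111), with 2.48 in 4T1 and 0.26 in 67NR. S100a8 rose by 1.32 (adjusted p = 0.0111 by limma), with 2.38 in 4T1 and 0.27 in 67NR. Both subunits are carried as a complex, and their 67NR lungs overlapped the normal ones: S100a8 intensities were 9333 to 12329 in 4T1, 2202 to 3422 in 67NR and 1482 to 2820 in normal lungs. Without 67NR replicate 1 or normal replicate 2, the 67NR differences of S100a9, S100a8 and Cxcr2 lay between 0.10 and 0.18. Cxcr2, which guides neutrophils to chemokines, differed by 2.41 in 4T1 and 0.23 in 67NR. Mmp8, a neutrophil collagenase, differed by 1.36 and 0.05, and Mmp9, a gelatinase of neutrophils and macrophages, by 2.03 and 0.34. A second Mmp9 probe set differed by 1.29 and 0.02 and did not pass pooled (limma adjusted p = 0.364).

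Olfm4, a glycoprotein of neutrophil granules and of gut epithelium, differed by 2.36 in 4T1 and 0.52 in 67NR (unadjusted p = 0.0392, limma adjusted p = 0.795). Its intensities were 148 to 273 in 4T1, 37.7 to 61.8 in 67NR and 9.57 to 46.1 in normal lungs. The lowest of these, normal replicate 2, lay well under the 4 other normal lungs, at 32.7 to 46.1, and without it the 67NR difference was 0.31. The pooled call of Olfm4 was kept in 6 of 14 fits that left out 1 array, and that of Gda in 3 of 14. Of the 15 calls that differed between the tumours, Olfm4, Clec4d and 1450639_at were those with an unadjusted p under 0.05 in 67NR with all arrays. 1450639_at carries several symbols in the annotation and differed by 1.49 in 4T1 and 0.45 in 67NR. 1435761_at, also with several symbols, had the largest pooled difference, 2.12, with 4.14 in 4T1 and 0.09 in 67NR.

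Wfdc17, a small secreted whey acidic protein of myeloid cells, shows how a pooled call can pass through 1 tumour. Its intensities were 2332, 1456, 2082 and 2318 in 4T1 lungs. They were 356, 239, 268, 285 and 267 in 67NR lungs, and 328, 241, 264, 298 and 277 in normal lungs. The 67NR and normal ranges coincide. The pooled difference was 1.39 (limma adjusted p = 0.000507), with 2.78 in 4T1 and 0.0012 in 67NR (95% interval -0.30 to 0.30).

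Klra17, a lectin-like receptor of the Ly49 family, had the smallest pooled p. It differed by 0.78 (SE 0.06, limma adjusted p = 0.000366), with 1.46 in 4T1 and 0.10 in 67NR. Intensities were 210 to 243 in 4T1, 70.4 to 85.5 in 67NR and 61.5 to 78.6 in normal lungs. Ifitm1, an interferon-induced membrane protein, differed by 1.05 in 4T1 and 0.04 in 67NR. Gda, guanine deaminase, differed by 0.88 and 0.17, and 2 further Gda probe sets had pooled differences of 0.46 and 0.38 that did not pass. Steap4, a metalloreductase of the inflammatory response, differed by 1.03 in 4T1 and 0.19 in 67NR, and its other probe set had the same pooled value of 0.61 (limma adjusted p = 0.0624).

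The lists of neutrophil and of other myeloid genes hold called genes and were chosen with earlier results of these data known. Their values describe the calls and are not independent of them. Of 28 neutrophil genes measured through 34 probe sets, 7 were called higher and 0 lower, and 21 were not called. Over all probe sets 0.0377% were called. The called genes were Clec4d, S100a9, Mmp8, Cxcr2, S100a8, Stfa2l1 and Mmp9. The median pooled difference was 0.62, 1.14 in 4T1 and 0.04 in 67NR, against medians of -0.0059 and -0.00067 over all probe sets. The summed intensity was 35355 to 47186 in 4T1, 14457 to 20182 in 67NR and 14097 to 18531 in normal lungs, so the 67NR range overlapped the normal one. The list had 3 called members without normal replicate 4 and 2 without 67NR replicates 1 and 3.

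Among neutrophil genes that did not pass, Csf3r, the G-CSF receptor, had a pooled difference of 1.12 (limma adjusted p = 0.0624), Stfa3 2.01 (0.118) and Wfdc21 0.69 (0.1002), with 1.65 in 4T1 and -0.26 in 67NR. Ngp, a granule protein, differed by 2.34 in 4T1 and -0.34 in 67NR. The azurophil granule genes of immature cells, Mpo, Elane, Ctsg and Prtn3, differed by -0.02, 0.02, -0.05 and 0.67 pooled. Prtn3 differed by 1.41 in 4T1 and -0.07 in 67NR (pooled limma adjusted p = 0.964). Of 24 other myeloid genes in 30 probe sets, Wfdc17, Ifitm1 and Gda were called, where 0.0377% of all probe sets were. The list median was 0.28 pooled, 0.52 in 4T1 and 0.05 in 67NR. Slfn4, a schlafen of activated myeloid cells, had the largest 67NR value of this list, 0.60, beside 2.01 in 4T1, and did not pass pooled (limma adjusted p = 0.0795). Msrb1, a methionine sulfoxide reductase, had 0.43 (0.0539).

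A few dim genes had nearly equal differences in both tumours without passing. Sval2, a seminal vesicle antigen-like gene, had intensities of 17.8 to 23.7 in 4T1, 11.3 to 23.6 in 67NR and 2.53 to 11.2 in normal lungs, with no overlap between tumour and normal. Its pooled difference was 0.68 (limma adjusted p = 0.0671), 0.75 in 4T1 and 0.61 in 67NR. Rnf151, a RING finger gene, also did not overlap, at 50.3 to 94.9 in tumour and 9.05 to 45.2 in normal lungs, with a pooled difference of 0.89 (limma adjusted p = 0.352). Slc27a2, a very long-chain acyl-CoA synthetase, differed by 0.99 (0.364), and Tacr3, the neurokinin B receptor, by 0.83 (0.449). A further Tacr3 probe set, brighter than this one, gave -0.09.

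No gene passed on the lower side, where Syt2 had the smallest p and passed in 6 of 26 alternatives. Syt2, a calcium sensor of vesicle release, had intensities of 7.57 to 9.17 in 4T1, 6.71 to 10.6 in 67NR and 14.8 to 35.9 in normal lungs. The 9 tumour lungs all lay under the 5 normal ones, at dim levels. The difference was -0.69 in each tumour and pooled (limma adjusted p = 0.0507, and 0.0214 with an offset of 1, 0.0414 with quantile normalisation, 0.0483 with median centring, 0.0401 with a trended variance, 0.0328 with array weights and 0.0184 without normal replicate 3). The other Syt2 probe sets gave 1.14 and 0.13, in the opposite direction. Syne2, the nuclear envelope protein nesprin-2, had -0.79 (0.0836), and its other probe sets gave 0.03, -0.15 and 0.31.

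Traf6, a ubiquitin ligase of innate immune signalling, had a pooled difference of -1.32 (limma adjusted p = 0.235), -1.14 in 4T1 and -1.49 in 67NR, on 1 probe set. Its intensities there were 18.2 to 77.6 in 4T1, 22.1 to 28.6 in 67NR and 52.5 to 162 in normal lungs. The other 4 probe sets of Traf6 lay between -0.09 and 0.01. Gins1, a subunit of the replicative helicase, did not overlap, at 1.32 to 10.2 in tumour and 10.3 to 25.7 in normal lungs (-0.61, limma adjusted p = 0.308). A brighter Gins1 probe set gave -0.23. Fam184b had -0.997 (limma adjusted p = 0.292), with -1.29 in 4T1 and -0.70 in 67NR, at intensities of 4.37 to 67.2. Its other probe sets gave 0.33, with 0.33 in each tumour, and -0.11.

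Among the brighter probe sets Lss, lanosterol synthase of the cholesterol pathway, had intensities of 386 to 427 in 4T1, 377 to 456 in 67NR and 457 to 552 in normal lungs. All tumour lungs lay below all normal lungs, the nearest by a narrow margin, and the pooled difference was -0.26 (limma adjusted p = 0.402). Dimmer Lss probe sets gave -0.34 and -0.04. Ints9, a subunit of the Integrator complex, had 526 to 560 in tumour and 581 to 646 in normal lungs, a difference of -0.15 (0.428). Tbcel, a tubulin folding cofactor, had -0.31 (0.402), and -0.08 by its other probe set. Dimmer probe sets of small p were those of Azin2, an antizyme inhibitor, at -0.25, Mtr, methionine synthase, at -0.39, and Ptpn4, a tyrosine phosphatase, at -0.36. Brighter probe sets gave -0.29 and -0.09 for Azin2, -0.16 for Mtr and -0.03 for Ptpn4. Ppil3, a prolyl isomerase, and Gtf3c4, a subunit of the RNA polymerase III factor TFIIIC, had -1.08 and -1.34 in 4T1 but -0.12 and -0.09 in 67NR, and the tumours differed (limma adjusted p = 0.00853 and 0.0146). Their other, brighter probe sets gave pooled differences of -0.07 and -0.02, with -0.13 and -0.05 in 4T1.

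**Figure D4:**
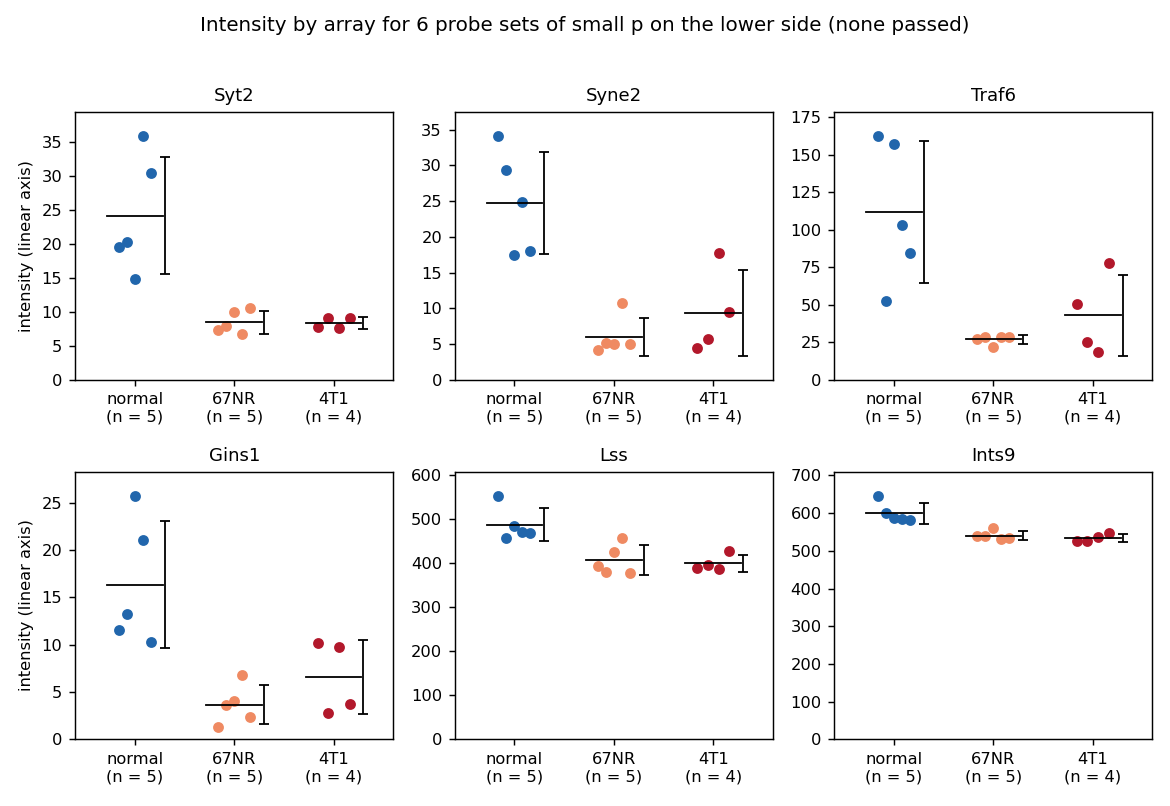
Intensity on each array (points; linear axis from 0) for 6 probe sets of small p on the lower side, with group means and SD. Syt2, Gins1, Lss and Ints9 show no overlap between tumour and normal lungs, Syne2 and Traf6 overlap, and none passed the threshold.

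Genes chosen for earlier interest, whatever their result, did not pass beyond those above. Lox, lysyl oxidase, which cross-links collagen, had a pooled difference of 0.50 (limma adjusted p = 0.770), with 0.78 in 67NR and 0.21 in 4T1. Dimmer Lox probe sets gave 0.41 and 0.09 pooled. Nt5e, the ectonucleotidase CD73, had -0.14, with -0.35 in 67NR and 0.07 in 4T1, by its brightest probe set. The others gave -0.28 and -0.09 pooled, with -0.13 and -0.15 in 4T1. Saa3, a serum amyloid, had 0.19 and Tsga10, a testis gene, 0.20, with -0.001 by a dimmer Tsga10 probe set. C5ar1, the complement C5a receptor, had 0.19 by its brightest probe set and 0.54 by another (limma adjusted p = 0.0757). Dbp had -1.17 pooled, with -0.05 in 4T1 and -2.28 in 67NR, and -0.39 pooled without 67NR replicates 1 and 3. Those 2 arrays were lowest, and 67NR replicates 2 and 4 also lay below every 4T1 and normal lung.

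Of the 38 gene lists, which held 717 distinct genes with 654 measured, 6 had a called member and 32 had none. Beside the lists above, the called members were Mmp8 and Mmp9 among 24 matrix enzymes, S100a8, S100a9 and Mmp9 among 33 premetastatic niche factors, and Steap4 among 23 acute phase genes. Of all probe sets 0.0377% were called. The 32 lists without a call had median pooled differences between -0.13, for circadian clock genes, and 0.09, for heat shock genes. The clock median was 0.02 in 4T1 and -0.28 in 67NR. Immediate early genes, many of them transcription factors, respond first to a stimulus. They had a median of -0.09, with -0.10 in 4T1 and -0.13 in 67NR. Of their 51 probe sets, 7 were lower at an unadjusted p under 0.05, where 2.65% of all were lower and 2.53% higher. Monocyte and interstitial macrophage genes had 5 of 33 probe sets higher at that level, with a median of 0.06, 0.06 in 4T1 and 0.04 in 67NR. Genes of the unfolded protein response had 5 of 58 higher, with a median of -0.01 in 4T1 and 0.11 in 67NR.

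**Figure D5:**
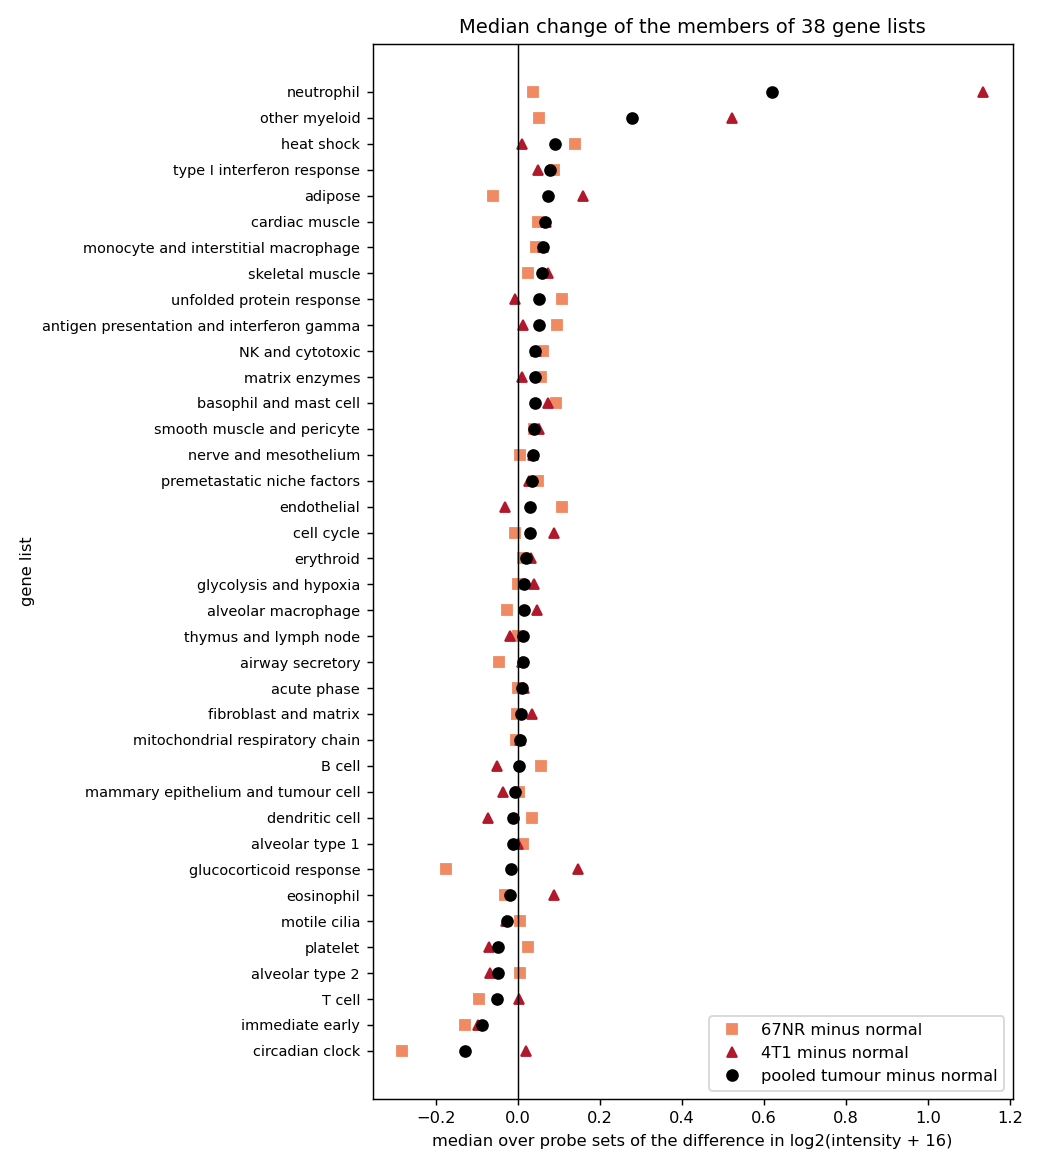
Median difference from normal lung, in log2(intensity + 16), over the probe sets of each of 38 gene lists, for 4T1 (triangles), 67NR (squares) and the pooled tumours (circles). The neutrophil list stands at 1.14 in 4T1 and 0.04 in 67NR, other myeloid genes at 0.52 and 0.05, and the lists with no called member have pooled medians between -0.13 and 0.09.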

How the data were processed

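The deposited values are linear intensities per probe set on 14 arrays. The authors' summarisation and normalisation of these values are not stated in the sources available. They were used as deposited, as log2(intensity + 16), with 64 control probe sets left out and dim ones kept; 16.28% of values lay below the offset. Probe sets were named from the platform annotation of 2016: 34945 carried 1 symbol, 932 several and 9160 none. limma 3.58.1 in R 4.3.3 (lmFit, 3 group means, default eBayes, 11 residual degrees of freedom) gave two-sided p-values, adjusted over 45037 probe sets. Steps were tested on simulated data.

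Named genes were those with the largest pooled changes among calls, the smallest pooled or joint p in each direction, called list members, and 12 genes of earlier interest. Members, lists and genes of interest were chosen with earlier results of these data known. Arrays of 1 group differed by 0.35 to 0.46 (root mean square, log2), so none was a copy. The labels do not say whether sample numbers pair the groups, and the main fit does not pair them. Alternatives covered offsets, normalisation, level filters, probe sets per gene, variance models, a fit of 2 groups, and arrays left out.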

Additional observations from a re-analysis of the deposited data

Results flagged for a closer look

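The 4T1 and 67NR lungs differed in 19 of the named probe sets (limma adjusted p from 2.47e-06 to 0.0249). The differences, as 4T1 minus 67NR in log2(intensity + 16), were 4.04 for 1435761_at, 3.71 for Stfa2l1, 2.77 for Wfdc17, 2.22 for S100a9, 2.18 for Cxcr2 and 2.10 for S100a8. They were 1.84 for Olfm4, 1.69 and 1.26 for the probe sets of Mmp9, 1.36 for Klra17, 1.34 for Clec4d and 1.31 for Mmp8. They were 1.04 for 1450639_at, 1.01 for Ifitm1, 0.84 for Steap4, 0.72 for Gda and 0.41 for Nt5e. Gtf3c4 (-1.25) and Ppil3 (-0.96) were lower in 4T1 lungs.

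In 12 of 123 groups tested, 1 array lay far from the rest by Dixon's criterion. For normally distributed values taken at random, chance alone gives about 1 in 20. Most of these probe sets were picked by their results on the same arrays, so that rate may not hold here. In log2(intensity + 16), normal replicate 2 stood at 4.68 for Olfm4, 5.14 for Slc27a2 and 7.13 for Mtr. 4T1 replicate 2 stood at 8.62 for Mmp9 and 8.06 for Steap4, 4T1 replicate 1 at 8.73 for Lox, 4T1 replicate 3 at 10.04 for Nt5e and 4T1 replicate 4 at 4.71 for Fam184b. 67NR replicate 4 stood at 7.38 for Steap4 and 4.74 for Syne2, and 67NR replicate 3 at 5.25 for Traf6 and 9.17 for Ints9.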

How the results depend on the processing

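The 17 pooled calls became 1 in the fit of 2 groups, 10 with the dimmer 75% of probe sets left out and 5 without 67NR replicates 1 and 3, and 8 to 25 with single arrays left out. The joint call became 0 with an offset of 64, with the dimmer 50% or 75% of probe sets left out (where Mcpt8 was not tested), and without 67NR replicates 1 and 3, and 0 to 1 with single arrays left out. The 3 calls without overlap became 1 in the fit of 2 groups, 1 without the dimmer 50% and 0 without the dimmer 75%, and 2 to 6 with arrays left out. The 15 calls that differed between the tumours became 4 without 67NR replicates 1 and 3, and 7 to 22 with arrays left out. The 5 dim calls became 1 in the fit of 2 groups, 8 with array weights and 2 without 67NR replicates 1 and 3, and 3 to 10 with arrays left out. The 7 neutrophil calls became 0 in the fit of 2 groups, 3 without the dimmer 75% and 2 without 67NR replicates 1 and 3, and 3 to 8 with arrays left out. At most 2 probe sets were called lower under any alternative. The cause was not tested. The fit of 2 groups counts the gap between the tumours as spread, by its construction.

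With the replicate block there were 15 pooled calls, 13 of them different between the tumours, 3 without overlap, 4 dim and 8 neutrophil, and 0 joint calls (for Mcpt8, limma adjusted p = 0.518). Whether the numbers mark a batch or an order of work is not stated in the labels. None of 13 same-numbered pairs had a correlation of deviations above 0.1 (-0.126 to 0.0839), and differently numbered pairs were not compared.

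With 1 probe set per gene the differences of Tacr3, Syt2 and Syne2 turned to -0.091, 1.14 and 0.0286, and with the mean of the probe sets that of Syt2 to 0.19; these settings use other probe sets of the gene. No detection calls were used, so a signal near the floor could not be told from background.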

Other observations

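Genes of cholesterol synthesis, a list put together after the value of Lss was seen, had small negative differences in both tumours. Of 20 genes, 17 were measured through 38 probe sets; 0 were called, 14 were lower and 2 higher at an unadjusted p under 0.05, where 2.65% and 2.53% of all probe sets were. The lower ones include probe sets of Lss itself, which prompted the list, and genes such as Fdft1 and Hsd17b7 count through several probe sets. The counts are therefore not independent of that choice. The median pooled difference in log2(intensity + 16) was -0.16, with -0.20 in 4T1 and -0.15 in 67NR lungs. Dhcr7, which makes cholesterol from its last precursor, had -0.24 (limma adjusted p = 0.420), squalene synthase Fdft1 had -0.26, squalene epoxidase Sqle -0.24 and the methyl sterol oxidase Msmo1 -0.28 by their probe sets of smallest p. Fdps, the farnesyl diphosphate synthase, had -0.22 by that rule and 0.48 by a dimmer probe set. Sc5d, a sterol desaturase of the pathway, went the other way by its probe set of smallest p, at 0.17 (limma adjusted p = 0.947), and its other probe sets gave -0.10 and -0.06. In each tumour 6 of the 38 probe sets had a positive difference.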
